A study of Mus musculus with 2 samples.

Results

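The genes described here are 10 regulators of the G1 phase of the cell cycle: the D cyclins Ccnd1, Ccnd2 and Ccnd3, the kinases Cdk4 and Cdk6, the inhibitors Cdkn1a, Cdkn1b, Cdkn2c and Cdkn2d, and the antiproliferative gene Btg2. They are 10 of 22372 protein-coding genes of the mouse annotation. A DNase I peak was given to a gene when its summit lay in the gene body or within 50 kb on either side, or within 200 kb for Cdk6. These windows held 231 and 222 peaks in G1E-ER4 lists 1 and 2 and 231 and 264 in G1E lists 1 and 2. Merged wherever peaks overlapped by at least 1 bp, these 948 peaks made 349 regions, of 188044 in the genome and 169885 within 50 kb of a gene.

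D cyclins bind Cdk4 and Cdk6, and the active kinases phosphorylate the retinoblastoma proteins and so release E2F factors that start DNA synthesis. The Cdkn2 inhibitors bind Cdk4 and Cdk6 directly, the Cdkn1 inhibitors act on complexes of cyclins with their kinases, and Btg2 restrains the passage into S phase. Red cell precursors divide a limited number of times and then leave the cell cycle as they mature, and GATA-1 is known to drive both the maturation and the arrest. The D cyclins and kinases are called growth genes below, and the inhibitors and Btg2 exit genes.

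DNase-seq maps open chromatin by sequencing the places where DNase I cuts nuclei. G1E is a mouse erythroid progenitor line that lacks Gata1, labelled as male, of strain 129 and as derived from embryonic stem cells, and it was given no treatment. G1E-ER4 is labelled with the same sex, strain and origin, carries a restored Gata1 under the control of estradiol, and was treated with 10 nM beta-estradiol for 24 h. The ER4 protein is known as a fusion of GATA-1 with the hormone-binding part of the estrogen receptor, put into the G1E line, so both lines share the Gata1 deletion. There was 1 sample in each state with 2 peak lists each, and no untreated G1E-ER4 or estradiol-treated G1E cells were analysed here, so the restored gene, the hormone, the cell line and the sample cannot be told apart. Nothing in the labels says that the paired lists are separate cultures, so the spread inside a state may be technical. With 2 lists against 2 the smallest two-sided exact permutation p is 0.333, so differences were described against the spread between lists and not tested.

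Each list held 100000 peaks, and a peak is given below by the percentile of its signal within its own list, where 100 is the strongest. The read depth is unknown. G1E-ER4 list 1 had the lowest median promoter percentile over all genes, 89.8, against 92.7 in list 2 and 92.1 and 92.8 in the G1E lists. Every list had a promoter peak at all 8 erythroid marker genes, and likewise at 4 of 5 megakaryocyte and 2 of 4 granulocyte and monocyte markers. None of the 5 lymphoid and none of the 4 mast cell markers had one in all 4 lists. Mast cell promoters with a peak numbered 0 in either list of G1E-ER4, 1 in G1E list 1 and 4 in G1E list 2, and lymphoid ones numbered 1 and 2 in G1E-ER4 and 0 in either G1E list. The part of other lineages in the results was not tested.

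Of the 47 promoter regions 34 had a peak in every list, and the regions restricted to 1 state lay away from promoters. The matching shares over all promoter regions were not computed, so this placement is not read as a trait of these genes. Of the 349 regions, 84 (24.1%) had a peak in all 4 lists, where 16.8% of all regions near genes did. A peak in both G1E-ER4 lists and in no G1E list, called G1E-ER4-only, was found in 6 regions (1.72%), against 2.46% of all regions near genes. The opposite class, called G1E-only, had 14 regions (4.01%), against 3.91%. Both shares are near those of all regions. None of them was a promoter. Of the G1E-ER4-only regions 5 lay between genes and 1 in an intron, and of the G1E-only regions 7 lay between genes, 5 in introns and 2 in exons. A further 164 regions were seen in a single list, 56 of them in G1E list 2, and 81 in some other mix.

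The G1E-only regions were gathered at Cdk6, whose window is the widest, and the G1E-ER4-only regions were spread over 5 genes. Cdk6 had 7 of the 14, Cdk4, Cdkn1a and Cdkn1b had 2 each and Ccnd2 had 1, so 5 of the 10 genes had at least 1, against 39.8% of all genes within 50 kb. Of the G1E-ER4-only regions Btg2 had 2, and Ccnd2, Ccnd3, Cdkn2c and Cdkn2d had 1 each, again 5 of 10 genes, against 31.1% of all genes. These counts rest on a peak being missed in a list as well as found: the 6 G1E-ER4-only regions became 10 and 20 without G1E lists 1 and 2 and 45 and 55 without G1E-ER4 lists 1 and 2. The 14 G1E-only regions became 70 and 44 without G1E lists 1 and 2 and 25 and 39 without G1E-ER4 lists 1 and 2. Leaving out a list relaxes the rule, since fewer lists must hold or lack a peak, so these counts could hardly fall.

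Promoters were open in both states at nearly all of the genes. A peak reaching within 1000 bp of a start was present in all 4 lists for 9 of the 10 genes, against 51.3% of all genes. The promoters of 3 genes, Cdk6, Cdkn1a and Cdkn2d, were lower in both G1E-ER4 lists than in both G1E lists, and none was higher. Over all genes with a promoter peak in every list, 13.2% were lower and 15.6% higher by the same rule. Among the promoters of all genes the ranks varied. Cdk4 stood at percentiles of 82.5 or more in every list, Cdkn2c had 36.4, 59.6, 53.1 and 49.8, and Cdk6 had 15.5, 38.8, 40.7 and 37.6, in the order G1E-ER4 lists 1 and 2, G1E lists 1 and 2. By these ranks the states overlapped at Cdk6, while Cdkn1a and Cdkn2d remained lower in both G1E-ER4 lists. The plot of promoter percentiles over all peaks shows both growth and exit genes near the top of the lists, with Ccnd1 as the exception.

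**Figure D1:**
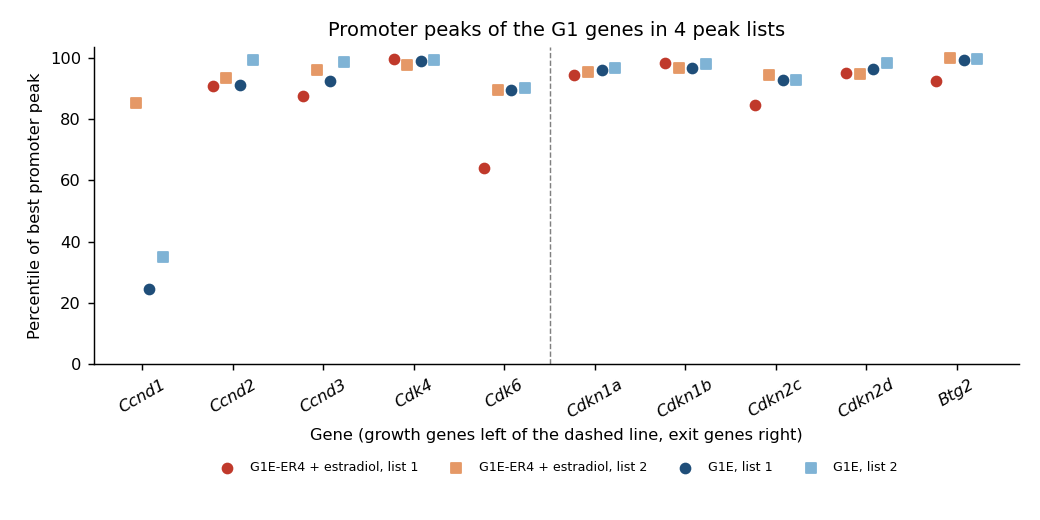
Percentile of the best promoter peak (vertical axis, 100 is the strongest peak of a list) of each gene in the 4 peak lists, with growth genes left and exit genes right of the dashed line. Cdk4 and Cdkn1b lie above 96 in every list, Ccnd1 has no point in G1E-ER4 list 1 and lies at 24.4 and 35.0 in the G1E lists, and Cdk6 has a low point at 63.9 in G1E-ER4 list 1.

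**Figure D2:**
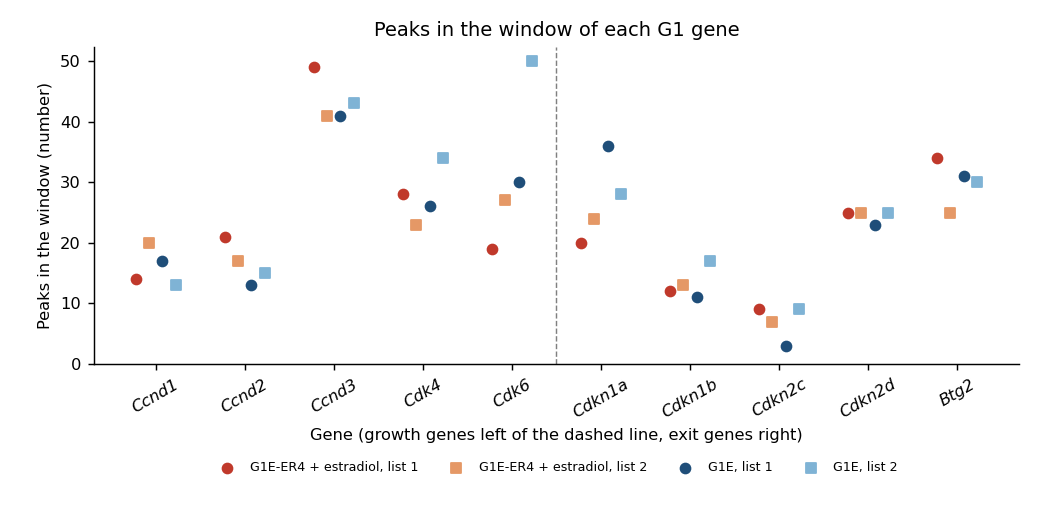
Number of peaks in the window of each gene (vertical axis) in the 4 peak lists. Cdk6 and Cdkn1a have fewer peaks in both G1E-ER4 lists than in both G1E lists, Ccnd2 has more, and the points of the 2 states overlap at the other 7 genes.

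The D cyclins had promoters of different strength, and none of the 3 promoters separated the states. Ccnd1 (chr7:152115836-152125774, minus strand) had the weakest promoter of the 10 genes. No peak reached its start region in G1E-ER4 list 1, and the best peak stood at the 85.2 percentile in G1E-ER4 list 2 and at 24.4 and 35.0 in the G1E lists. The high value of G1E-ER4 list 2 belongs to a wide peak whose summit lies 2247 bp into the gene. The merged region of 3456 bp that holds this summit had a peak in all 4 lists. The best percentiles anywhere in it were 79.6 and 85.2 in G1E-ER4, against 74.3 and 83.4 in G1E, so the states overlapped there. A region with its summit in an exon, 7904 bp from the start, was lower in G1E-ER4, at 75.2 and 78.5 against 80.3 and 82.3. The strongest region outside promoters, at chr7:152092507-152095116 beyond the 3′ end, had 76.7, 81.8, 79.0 and 80.9 in the order G1E-ER4 list 1, list 2, G1E list 1, list 2. Its window held no region restricted to 1 state, and its peak counts of 14 and 20 against 17 and 13 overlapped.

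Ccnd2 (chr6:127075797-127101066, minus strand), a D cyclin known for its use in hematopoietic progenitors, had a promoter peak in every list. Its promoter percentiles were 90.8 and 93.3 in G1E-ER4, against 91.0 and 99.3 in G1E, which overlap. Introns 3125 and 8449 bp from the start carried shared regions at 87.1, 85.1, 81.5 and 85.3 and at 56.8, 84.5, 85.1 and 83.6. A G1E-ER4-only region lay 33255 bp upstream of the start at chr6:127134059-127134571, at 49.1 and 49.8, in the middle of the lists. A G1E-only region lay 26238 bp downstream of the start at chr6:127074645-127075171, just beyond the gene's 3′ end, at 3.34 and 54.4. The window held 21 and 17 peaks in G1E-ER4, against 13 and 15 in G1E, a log2 ratio of 0.44, where 19.5% of all genes with at least 40 peaks had both G1E-ER4 counts above both G1E counts. Among the stronger 50% of peaks this ratio was -0.18.

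Ccnd3 (chr17:47642000-47736632, plus strand, with 2 annotated starts) is the D cyclin known for its part in the last divisions of red cell precursors. It had the most shared regions of the 10 genes, 19 of 54, and the regions that separated the states lay upstream, in its introns and in Med20, not at its promoters. The best promoter peak stood at 87.6 and 95.9 in G1E-ER4, against 92.5 and 98.5 in G1E. The upstream flank carried the strongest G1E-ER4-only region of all 10 genes, chr17:47628749-47632501, at 89.6 and 86.8. It lies in an intron of Taf8, 10733 bp upstream of Ccnd3 and 7969 bp from the start of Taf8, so it can be given to either gene. Further upstream, 3 regions present in every list were higher in G1E-ER4. The region chr17:47601077-47608461, 40232 bp upstream, had 79.6 and 74.3 against 47.3 and 55.8. Its neighbour chr17:47609718-47611745, 31287 bp upstream, had 88.7 and 82.0 against 73.0 and 66.0. The third, chr17:47620559-47624804, 19840 bp upstream, had 89.2 and 88.2 against 87.9 and 83.3, a small difference. The upstream 50 kb as a whole held 20 and 12 peaks in G1E-ER4, against 14 and 9 in G1E, which overlap.

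Inside Ccnd3 the introns differed in both directions. A region 18496 bp from the first start was higher in G1E-ER4, with 80.8 and 87.7 against 70.6 and 65.4. Regions at chr17:47705189-47706459 and chr17:47715405-47716263, toward the second start, were lower, with 70.9 and 65.1 against 79.7 and 80.3, and 60.1 and 61.5 against 75.5 and 67.2. The strongest intron regions did not separate the states: 6187 bp from the start the percentiles were 99.5, 96.1, 95.7 and 96.9, and at 30882 bp they were 99.5, 94.5, 96.1 and 94.9. In all, 5 of the 19 shared regions were higher in G1E-ER4 and 2 lower, and the fifth higher one lay in an intron of the neighbouring Med20, at 89.0 and 88.4 against 78.0 and 77.0. Over all regions near genes present in every list, 19.2% were higher and 16.0% lower by this rule. The count of 1 G1E-ER4-only region at Ccnd3 became 2 and 6 without G1E lists 1 and 2 and 5 and 7 without G1E-ER4 lists 1 and 2. Of the 54 regions in the window, 27 were nearest to a start of Ccnd3.

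**Figure D3:**
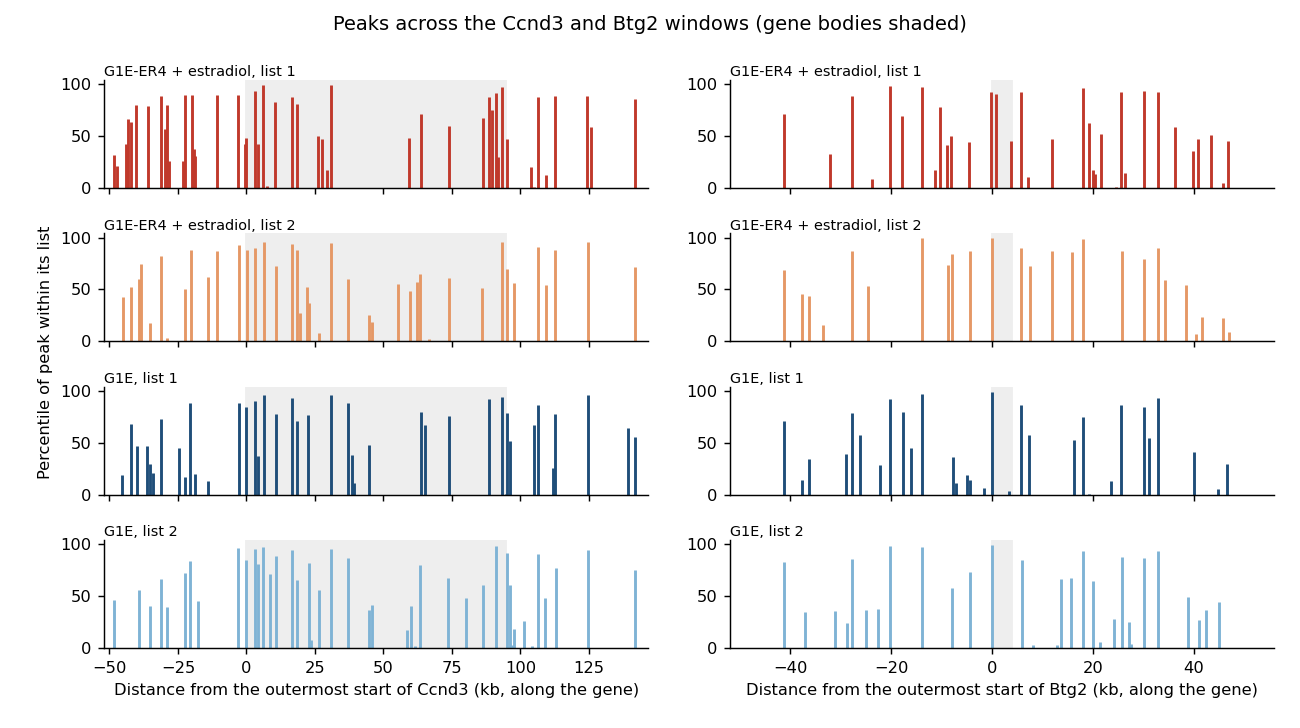
Each vertical line is 1 peak, at its distance in kb from the outermost start along Ccnd3 (left) and Btg2 (right), with its percentile in its own list as the height; the 4 rows are the 4 lists and the gene bodies are shaded. The Ccnd3 peak near -10.7 kb stands at 89.6 and 86.8 in the G1E-ER4 rows and is missing from the G1E rows, and the Btg2 peaks near 11.9 and -8.8 kb are likewise missing there.

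The bases around the summits of the 4 highest G1E-ER4-only regions are shown because they are the open sites seen only in G1E-ER4 next to these genes. Each is the plus strand of mm9 with 100 bases on either side of the summit. Capitals mark matches to the GATA motif, searched on both strands as AGATAA with A or T in its first place and A or G in its last.
Ccnd3 upstream, in Taf8, chr17:47631167-47631367 (+): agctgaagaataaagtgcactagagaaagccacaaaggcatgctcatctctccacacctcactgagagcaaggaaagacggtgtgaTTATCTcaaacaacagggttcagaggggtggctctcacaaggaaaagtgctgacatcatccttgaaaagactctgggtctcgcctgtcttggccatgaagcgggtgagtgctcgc
Cdkn2d upstream, near Ap1m2, chr9:21119282-21119482 (+): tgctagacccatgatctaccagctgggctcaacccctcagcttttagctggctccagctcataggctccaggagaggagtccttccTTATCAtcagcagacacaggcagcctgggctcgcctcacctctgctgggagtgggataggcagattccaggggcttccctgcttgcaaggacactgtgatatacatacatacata
Btg2 downstream, chr1:135963740-135963940 (+): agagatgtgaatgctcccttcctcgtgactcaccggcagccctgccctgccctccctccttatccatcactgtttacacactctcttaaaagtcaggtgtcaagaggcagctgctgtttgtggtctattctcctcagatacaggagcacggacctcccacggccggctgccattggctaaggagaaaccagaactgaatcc
Btg2 upstream, chr1:135984382-135984582 (+): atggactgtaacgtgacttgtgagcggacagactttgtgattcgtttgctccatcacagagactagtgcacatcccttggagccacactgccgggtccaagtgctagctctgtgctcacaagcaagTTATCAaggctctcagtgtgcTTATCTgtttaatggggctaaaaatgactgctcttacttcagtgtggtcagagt
The Ccnd3 and Cdkn2d sequences hold 1 GATA match each, the Btg2 upstream sequence holds 2 and the Btg2 downstream sequence none.

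In its wider window Cdk6 had the most G1E-only regions and the lowest ratio of peak counts of the 10 genes. Cdk6 (chr5:3343893-3523218, plus strand), whose fall is known to accompany the exit of erythroid precursors from the cell cycle, had 19 and 27 peaks in its wide window in G1E-ER4, against 30 and 50 in G1E, a log2 ratio of -0.80. Beyond the window, over up to 5 Mb on each side, the same ratio was -0.29. Cdk6 starts 3343893 bp into chromosome 5, so the upstream side is shorter than 5 Mb. The -0.29 therefore rests mostly on the downstream side and is no reference for the upstream flank alone. A share of 15.7% of all genes with at least 40 peaks had both G1E-ER4 counts below both G1E counts, taken over 50 kb windows. The upstream 200 kb held 4 and 3 peaks against 8 and 14, and the downstream 200 kb held 8 and 8 against 10 and 12. In the gene body, with 7 and 16 against 12 and 24, the lists of the 2 states overlapped. G1E list 2 weighs in these counts: 24 of the 73 regions were seen in that list alone, and the log2 ratio without it was -0.38. Without that list Cdkn1a had a lower ratio, -0.71. With windows of 50 kb for every gene the ratios were close, -0.57 at Cdk6 and -0.54 at Cdkn1a. The lowest rank of Cdk6 thus depends on the window and on this list.

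The window had 7 G1E-only regions and no G1E-ER4-only region. Of all genes, 5.68% had at least 7 G1E-only regions within 200 kb, and the 7 make 9.59% of the 73 regions at Cdk6 against 3.91% of all regions near genes. The threshold of 7 equals the count at Cdk6, and genes were not matched for length, which adds to the window. The 3.91% covers regions within 50 kb of a gene, so neither value is a matched reference. The strongest, chr5:3197971-3199565, lay 145275 bp upstream between genes, at 82.8 and 90.7. The next, chr5:3216041-3216742, lay 127483 bp upstream, at 71.0 and 72.2. Regions at chr5:3223842-3224305 and chr5:3300861-3301838, also upstream, stood at 52.8 and 52.4 and at 67.1 and 24.9. The introns of Cdk6 held regions 18035 and 40977 bp from the start, at 59.7 and 60.2 and at 43.5 and 32.5. The remaining region, chr5:3722802-3723827, lay in an intron of Ankib1, 378763 bp from the Cdk6 start, at 43.1 and 67.3. With windows of 50 kb for every gene the count at Cdk6 was 3. It was 15 without G1E-ER4 list 2, 31 without G1E list 1 and 13 without G1E list 2.

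The 4 upstream G1E-only regions belong to a stretch of 105 kb, chr5:3196589-3301838, in which 11 consecutive regions had no peak in either G1E-ER4 list. It held 4 and 11 peaks in the G1E lists. This stretch was singled out after its values were seen, and 0.568% of all genes had a run of at least 11 such regions within 200 kb. The map of peaks across the Cdk6 window shows the empty stretch left of the gene in both G1E-ER4 rows.

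**Figure D4:**
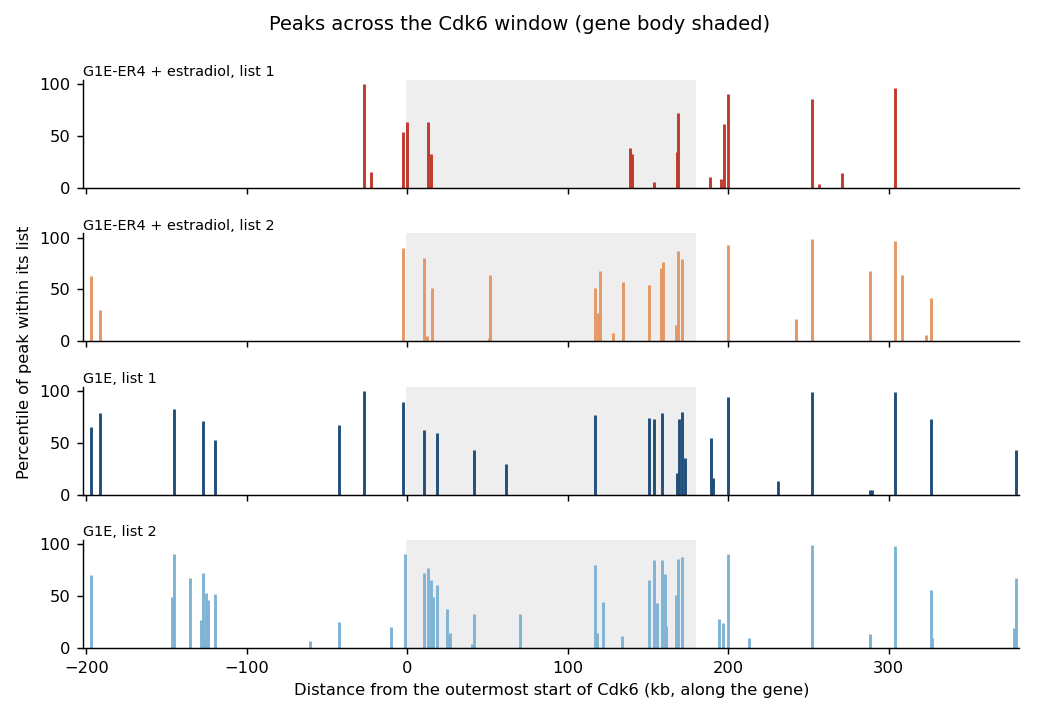
Each vertical line is 1 peak at its distance in kb from the start of Cdk6 (horizontal axis), with its percentile in its own list as the height; the 4 rows are the 4 lists and the gene body is shaded. Between 147 and 42.1 kb upstream the G1E-ER4 rows are empty, where G1E lists 1 and 2 have 4 and 11 peaks.

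The promoter of Cdk6 had 63.9 and 89.6 in G1E-ER4, against 89.6 and 90.0 in G1E, lower in both G1E-ER4 lists by a narrow margin in list 2. Taking only peaks with a summit within 500 bp of a start turned the difference of the means from -13.05 to 32.0 points. In that setting a list without such a peak counts as percentile 0. The 32.0 points match 63.9 in G1E-ER4 list 1 and 0 in the other lists. The sign change thus rests on absent peaks and is not a difference between peaks of the 2 states. Without G1E-ER4 list 1 the difference was -0.21 points. Within the gene, a pair of shared intron regions 167316 and 168544 bp from the start had 34.8, 16.1, 21.1 and 50.7, and 72.7, 86.7, 72.5 and 86.0, and did not separate the states. The promoter of Gatad1 in the wide window was lower in G1E-ER4 too, with 96.2 and 96.9 against 98.4 and 98.5. In all, 31 of the 73 regions were nearest to a start of Cdk6.

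The 3 highest G1E-only regions were all at Cdk6, and the bases around their summits are shown as the counterpart of the G1E-ER4-only sequences, with the same length, strand and capitals.
Cdk6 upstream, farther site, chr5:3198518-3198718 (+): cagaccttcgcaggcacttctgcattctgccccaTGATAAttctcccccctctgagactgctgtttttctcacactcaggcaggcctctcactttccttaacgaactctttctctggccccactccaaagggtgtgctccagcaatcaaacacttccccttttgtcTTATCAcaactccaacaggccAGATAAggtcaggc
Cdk6 upstream, nearer site, chr5:3216310-3216510 (+): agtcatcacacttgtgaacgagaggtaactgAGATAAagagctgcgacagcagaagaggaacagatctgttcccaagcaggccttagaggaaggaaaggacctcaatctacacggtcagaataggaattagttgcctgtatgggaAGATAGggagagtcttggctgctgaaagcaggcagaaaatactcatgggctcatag
Cdk6 intron, chr5:3362247-3362447 (+): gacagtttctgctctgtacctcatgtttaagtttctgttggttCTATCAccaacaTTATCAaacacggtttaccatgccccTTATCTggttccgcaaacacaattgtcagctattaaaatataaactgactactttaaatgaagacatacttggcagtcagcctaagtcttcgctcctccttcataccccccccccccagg
The farther upstream site and the intron site hold 3 GATA matches each and the nearer upstream site 2. Of the 7 G1E-only regions at Cdk6, 5 held at least 1 match, as did 33 of all 73 regions in the window.

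Cdk4 (chr10:126500590-126504976, plus strand), the other kinase partner of the D cyclins, had the strongest promoter of the growth genes by the mean of each state, at 99.7 and 97.6 in G1E-ER4, against 98.8 and 99.4 in G1E. Its window is crowded: 7 other genes start in it, and 2 of its 30 regions were nearest to a Cdk4 start. Both G1E-only regions, chr10:126458666-126459330 and chr10:126459536-126459862, lay within Tsfm and were weak, at 8.36 and 0.328 and at 7.41 and 5.87. The strongest shared regions outside promoters lay in Os9, at 90.7 and 75.3 against 81.6 and 64.4, and in Avil and Tsfm, at 58.7 and 54.3 against 61.8 and 46.2, and their states overlapped. The promoter region of Agap2 was higher in G1E-ER4, at 81.1 and 77.2 against 63.8 and 54.1. Peak counts were 28 and 23 against 26 and 34.

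Among the inhibitors, Cdkn1a had a lower promoter, lower flanking regions and fewer peaks in G1E-ER4, Cdkn2d had a lower promoter, and the promoters of Cdkn1b and Cdkn2c overlapped between the states. Cdkn1a (chr17:29227924-29237667, plus strand) inhibits cyclin-dependent kinases and is known as a target of p53. Its promoter had 94.2 and 95.2 in G1E-ER4, against 95.9 and 96.6 in G1E, a difference of the means of -1.51 points. Of its 8 shared regions 3 were lower and 1 was higher, where 16.0% and 19.2% of all shared regions near genes were. Among shared regions whose states did not overlap, the largest differences toward G1E were here: chr17:29248128-29249019, 13292 bp downstream of the start, had 68.9 and 77.1 against 87.7 and 92.1, and chr17:29214737-29216557, 11871 bp upstream, had 64.6 and 87.2 against 90.2 and 91.0. The shared region 10048 bp upstream had 79.3, 83.3, 79.9 and 89.0 and did not separate the states. The region that was higher, 41653 bp upstream, had 83.4 and 88.2 against 77.8 and 79.1 and was nearest to Srsf3.

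Both G1E-only regions of the Cdkn1a window were modest: chr17:29178577-29178948, in an exon of Srsf3, had 41.7 and 55.6, and chr17:29198789-29199806, 28568 bp upstream of Cdkn1a, had 0.3745 and 29.7. Peak counts were 20 and 24 in G1E-ER4, against 36 and 28 in G1E, a log2 ratio of -0.54, with -0.08 over the surrounding 5 Mb on each side. Of all genes with at least 40 peaks, 15.7% had both G1E-ER4 counts below both G1E counts. Among the stronger 50% of peaks the ratio was 0.10.

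The sequence of the Cdkn1a downstream region is shown because it differed most toward G1E among the shared regions whose states did not overlap.
Cdkn1a downstream, chr17:29248344-29248544 (+): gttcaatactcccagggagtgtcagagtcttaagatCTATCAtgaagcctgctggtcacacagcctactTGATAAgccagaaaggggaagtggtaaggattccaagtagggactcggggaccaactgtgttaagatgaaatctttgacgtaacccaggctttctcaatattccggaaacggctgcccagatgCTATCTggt
It holds 3 GATA matches.

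Cdkn1b (chr6:134870419-134875531, plus strand), which holds cells in G1 and is known to build up in maturing red cells, had a promoter near the top of every list, at 98.2, 96.7, 96.8 and 97.9. A region 3104 bp upstream of its start was higher in G1E-ER4, with 82.0 and 79.8 against 71.5 and 76.3. The strongest shared region outside promoters, 8273 bp downstream of the start, had 77.4, 91.9, 89.8 and 94.5 and did not separate the states. The promoter of Gpr19 in the same window was higher by a small amount, 94.7 and 94.4 against 94.4 and 93.1. Both G1E-only regions were uneven between lists: chr6:134826384-134827194 in a Gpr19 intron had 86.5 and 8.49, and chr6:134921833-134922480 had 54.7 and 27.7. Peak counts of 12 and 13 against 11 and 17 overlapped.

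Cdkn2c (chr4:109333481-109339794, minus strand), an inhibitor of Cdk4 and Cdk6, had 84.6 and 94.3 at its promoter in G1E-ER4, against 92.7 and 92.8 in G1E. Its window was sparse, with 11 regions and 9 and 7 peaks against 3 and 9. The G1E-ER4-only region chr4:109331243-109332069, 6541 bp downstream of the start and just past the gene, was weak at 30.3 and 18.8. Next to it the shared region 7990 bp from the start had 73.4, 90.3, 89.9 and 92.4. The promoter of the neighbour Faf1 was lower in G1E-ER4, at 90.4 and 96.0 against 97.4 and 97.2.

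Cdkn2d (chr9:21092907-21095653, minus strand), the fourth inhibitor, had 95.0 and 94.6 at its promoter in G1E-ER4, against 96.4 and 98.4 in G1E, which do not overlap and differ by -2.64 points of the means. It stands in a gene-dense window with 6 other genes, and 1 of its 32 regions was nearest to its own start, the promoter. The G1E-ER4-only region chr9:21118798-21120572, at 93.1 and 82.2, lay 23729 bp upstream of Cdkn2d but 2605 bp from the start of Ap1m2. Among the 84 shared regions the largest difference toward G1E-ER4 was in a region reaching the promoter of S1pr5, a sphingosine phosphate receptor, at 92.0 and 48.6 against 26.9 and 9.36. A second one, chr9:21137015-21138319 near Slc44a2, had 68.1 and 63.2 against 29.2 and 44.6. The strongest shared regions outside promoters, 29508 bp upstream and 16044 bp downstream of the start, had 86.5, 93.8, 92.3 and 89.3, and 57.2, 84.2, 44.1 and 59.9, with overlap. Peak counts were level at 25 and 25 against 23 and 25.

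Btg2 (chr1:135971747-135975697, minus strand), an antiproliferative gene of the Tob and Btg family, had G1E-ER4-only regions on both flanks while its promoter did not separate the states. The promoter had 92.5 and 99.8 in G1E-ER4, against 99.2 and 99.5 in G1E. The G1E-ER4-only regions were chr1:135963485-135964836 at 11857 bp downstream of the start, with 47.6 and 86.6, and chr1:135984172-135984718 at 8785 bp upstream, with 41.6 and 73.5. Of 13 shared regions 4 were higher and 1 lower in G1E-ER4, where 19.2% and 16.0% of all shared regions near genes were. The region 18137 bp downstream of the start had 96.8 and 98.9 against 74.8 and 93.6, and the one 5807 bp downstream, just past the gene, had 92.5 and 90.0 against 86.5 and 84.6. Upstream, the region at 13932 bp, the strongest of the window outside promoters, had 98.7 and 99.4 against 96.9 and 98.3, and the one at 27831 bp had 89.0 and 87.4 against 78.3 and 85.8. The lower region, in an intron of Fmod, had 92.5 and 89.8 against 93.0 and 93.3.

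Upstream of Btg2, shared regions at 4289 and 7904 bp had 44.3 and 86.7 against 19.0 and 73.5, and 50.0 and 84.5 against 35.9 and 57.4. Here list 2 was higher than list 1 in both states, and the states overlapped. Neither G1E-ER4-only region of Btg2 was in the stronger 50% of both G1E-ER4 lists, and 8 regions were counted without G1E-ER4 list 2. The upstream 50 kb held 13 and 11 peaks against 17 and 12 and the downstream 50 kb 19 and 14 against 13 and 18, and both overlapped. Peak counts of 34 and 25 against 31 and 30 in the whole window overlapped, a log2 ratio of -0.05, with -0.21 over the surrounding 5 Mb on each side.

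Over all 10 genes the shared regions leaned to neither state. Of the 84, 17 (20.2%) were higher and 13 (15.5%) lower in both G1E-ER4 lists, against 19.2% and 16.0% of all shared regions near genes. The median difference was 0.00237 percentile points at these genes and -0.3048 over all shared regions near genes. Growth genes had 7 higher and 6 lower of 45, with a median of -0.389, and exit genes 10 higher and 7 lower of 39, with a median of 0.104. By gene the direction varied within each group: Ccnd3 and Btg2 had more higher regions, Cdk6 and Cdkn1a more lower ones.

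**Figure D5:**
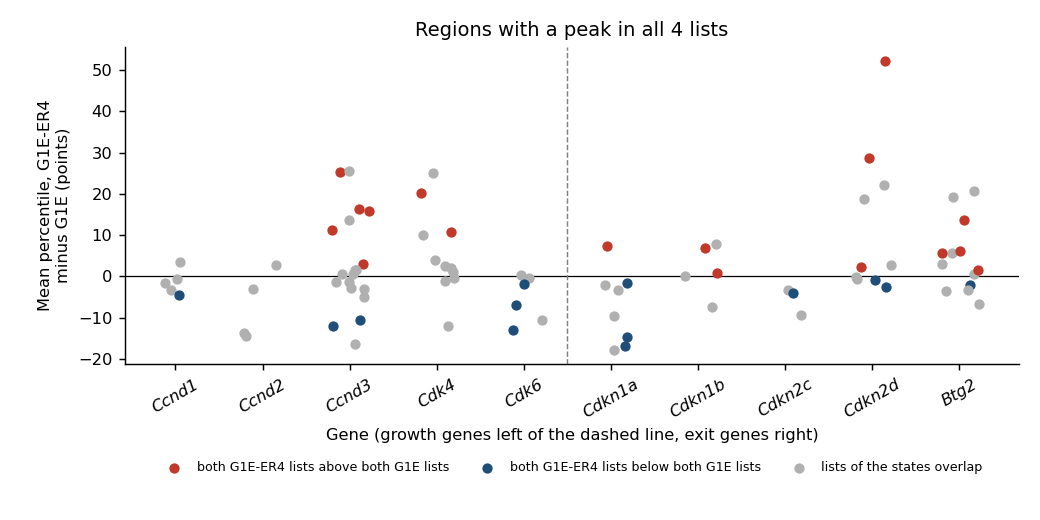
Difference of the mean percentile, G1E-ER4 minus G1E, in points (vertical axis), for each region with a peak in all 4 lists, by gene. Red points are higher in both G1E-ER4 lists than in both G1E lists (17 regions), blue points are lower (13 regions), and grey points overlap; the highest point is 52.2 at Cdkn2d and the lowest red or blue point is -16.9 at Cdkn1a.

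The difference between growth and exit genes did not separate the states. The mean promoter percentile of the growth genes, with the absent Ccnd1 peak counted as 0, was 68.4 and 92.3 in G1E-ER4, against 79.3 and 84.4 in G1E. That of the exit genes was 92.9 and 96.1 against 96.2 and 97.0. The exit genes were thus lower in both G1E-ER4 lists, with a difference of -2.105 points and a pooled SD of 1.66. G1E-ER4 list 1 also had the lowest median promoter percentile over all genes. Growth minus exit genes was higher by 0.605 points in G1E-ER4 than in G1E, with a pooled SD between lists of 10.56 (2 lists for each state). Without Ccnd1, left out after seeing the data, the same difference was -2.99 points with a pooled SD of 3.06. Both of these growth minus exit values are smaller than the spread between lists. The growth genes alone, without Ccnd1, had a difference of -5.09 points with a pooled SD of 4.69, and their lists overlapped. Peak counts were as level: the log2 ratio of G1E-ER4 over G1E was -0.12 for growth genes and -0.13 for exit genes, and their difference of 0.01 lay within the pooled SD of 0.11.

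State-restricted regions numbered 2 G1E-ER4-only (0.939%) and 10 G1E-only (4.69%) of 213 regions at growth genes. At exit genes they numbered 4 and 4 (2.94% each) of 136 regions. The shares among all regions near genes were 2.46% and 3.91%. The G1E-only count at growth genes rests on Cdk6, whose window is the widest: without it there were 2 (1.43%) and 3 (2.14%) of 140 regions. The difference in log2 peak ratio without Cdk6 was 0.21.

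GATA matches were frequent in the state-restricted regions of both kinds. Within 100 bases of the summit, 4 of the 6 G1E-ER4-only regions and 8 of the 14 G1E-only regions (57.1%) held at least 1 match, and 23 of the 84 shared regions (27.4%) did. Of all 349 regions at these genes, 133 (38.1%) did. GATA was 1 of 9 motifs searched, and the others are not described here. Over all regions near genes the shares were 38.9% of G1E-ER4-only, 34.9% of G1E-only and 28.0% of shared regions, and 30.2% of all. The numbers at these genes are small, and 7 of the 14 G1E-only regions share the Cdk6 window. A match is a string of letters and not a measured binding site.

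The wider G1 pathway was described with 24 other genes, whose promoters were mostly open in both states. A promoter peak was present in all 4 lists for 22 of them. The exceptions were Cdkn2a, with a peak in G1E-ER4 list 2 alone at 67.5, and its neighbour Cdkn2b, an inhibitor of Cdk4 and Cdk6, with none. Of these 22 promoters none was lower in both G1E-ER4 lists and 2 were higher. By the same rule 13.2% were lower and 15.6% higher over all genes with a promoter peak in every list. The higher ones were at Ccne1 and Cdkn1c. Ccne1, the cyclin E that partners Cdk2, had 99.4 and 99.9 against 99.0 and 97.5. Cdkn1c, the third Cdkn1 inhibitor, had 96.7 and 82.5 against 67.5 and 40.2. At Ccne1 the peak counts were 23 and 18 against 13 and 7, a log2 ratio of 1.04, but the surrounding 5 Mb on each side had 1.14, so the whole neighbourhood on chromosome 7 leaned the same way.

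Their windows held 512 regions, counting a region shared by neighbouring windows once for each, with 19 (3.71%) G1E-ER4-only at 9 genes and 22 (4.30%) G1E-only at 13 genes. Over all regions near genes these shares were 2.46% and 3.91%. At least 1 G1E-ER4-only region within 50 kb was found for 31.1% of all genes, and at least 1 G1E-only region for 39.8%. Cks1b, a partner of Skp2 in the removal of Cdkn1b, had 4 G1E-ER4-only regions and 1 G1E-only region. E2f2, a factor of erythroid precursors, had 3 of each kind, and Cdkn1c had 3 and 1. Ccne1 and the repressor E2f4 had 2 G1E-ER4-only regions each and no G1E-only region. Cdc25a, the phosphatase that activates Cdk2, had 2 of each, Tob1 had 1 and 2, Rb1 had 1 of each and Ccna2 had 1 G1E-ER4-only region. The retinoblastoma relative Rbl1 had 4 G1E-only regions and no other, with 6 and 8 peaks against 14 and 16. E2f1 and Skp2 had 2 G1E-only regions each, and Ccne2, E2f3, Rbl2 and E2f5 had 1 each. Of 153 shared regions in these windows, 35 (22.9%) were higher in G1E-ER4 and 16 (10.5%) lower, against 19.2% and 16.0% of all shared regions near genes.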

How the data were processed

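The data are 4 peak lists, 2 for the G1E-ER4 sample and 2 for the G1E sample, with groups taken from the cell line given for each sample. Per the design text of the series, tags of 20 bases were aligned to mm9 with Bowtie, a tag with more than 1 match was placed at its best one, SAMtools was used for conversion, F-seq made a smoothed density, and peaks were called for each list from a gamma fit. Tool versions, read numbers and the peak threshold were not stated in these sources. Kept multi-match tags can place peaks in repeats. The signal of a peak, as deposited by the authors, is an F-seq density. No scaling between lists is stated, so it was used only as a percentile within a list.

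Peaks overlapping by at least 1 bp were merged, and merging can hide changes inside wide regions. The GENCODE vM1 protein-coding annotation on the mm9 sequence gave gene bodies and starts, and a region within 1000 bp of a start is a promoter. No peak lay beyond the end of a chromosome (0 peaks). Coordinates are 1-based. Lists of 1 state do not overlap those of the other when both percentiles lie above or both below. Named are all members, their promoters, their state-restricted regions, up to 2 strongest shared regions outside promoters for each, the 5 largest differences in each direction among shared regions whose states do not overlap, and pathway genes with a state-restricted region or a missing promoter peak. Other shared regions and neighbouring promoters were named after their values were seen. The classing was tested on simulated data. The members and lists were chosen with earlier results of these data known. Alternatives changed the window, overlap, peak strength, promoter width, scaling and genes, and left out each list in turn. Python 3.11.15, numpy 2.4.6, pandas 2.3.3 and matplotlib 3.10.9 were used.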

Additional observations from a re-analysis of the deposited data

How the results depend on the processing

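No paired analysis was possible because each state has 1 sample and the values come from no test. The G1E-ER4-only count of 6 became 17 when peaks had to overlap by 50% of both, and was 4 to 9 under the 5 other planned choices that kept all lists. With a list left out it was 10 to 55, since fewer lists had to lack or hold a peak. The G1E-only count of 14 became 32 with 50% overlap, 24 with summits joined within 150 bp, 7 for regions nearest to a start of the gene, 4 with windows of 25 kb (100 kb for Cdk6), and 25 to 70 with a list left out. The count of 84 shared regions became 34 with 50% overlap and 35 for regions nearest to the gene, and was 89 to 110 with a list left out. The causes of the other moves were not tested. The growth minus exit promoter difference of 0.605 moved by less than its spread under all 10 alternatives. With a list left out this was fixed in advance, since dropping 1 of 2 lists cannot move the value beyond that spread. There the difference ranged from -9.73 to 10.9. The log2 peak ratio of growth over exit genes, 0.01, was 0.21 without Cdk6, an alternative chosen after seeing the data, and -0.09 to 0.13 with a list left out. Of the promoter differences and peak ratios of single genes whose states did not overlap, 3 changed sign. The Cdk6 promoter difference of -13.05 became 31.96 with summits within 500 bp, where a list without such a peak counts as 0. Among the stronger 50% of peaks the log2 peak ratio of Ccnd2 went from 0.44 to -0.18 and that of Cdkn1a from -0.54 to 0.10. Another 16 values changed sign where the states had overlapped. Of the 230 values for single genes, 157 moved by less than the spread between lists (for counts, by up to 1.5 times) and 70 by more. The 157 include promoter differences with a list left out, which could not move beyond the spread. Read depth is unknown and every list ends at 100000 peaks, so a missing peak shows only that a site was not in that list.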
